A study of Mus musculus with 6 samples.

Results

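RNA of 10 mouse genes that encode Rac-type GTPases, subunits of the WAVE complex and PAK kinases was compared between wild-type (WT) and Dock3 knockout (Dock3 KO) muscle. The genes were chosen by symbol: the GTPases Rac1, Rhog and Cdc42, the WAVE complex genes Wasf2, Abi1, Nckap1, Cyfip1 and Brk1, and the kinases Pak1 and Pak2. All 10 were found among the 54393 genes of the deposited table, and all 10 passed the filter on low values that left 16031 genes for testing. The samples were tibialis anterior (the shin muscle that lifts the foot) from adult animals, with 3 muscles labelled WT and 3 labelled Dock3 KO. No treatment is named in the labels. The WT titles carry the name C57, and the strain of the Dock3 KO mice, the allele and the exact age are not given in the sources used here. The labels do not say whether the muscles of a group came from separate animals, so p-values measure only the spread between these samples.

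Rac and Cdc42 are small GTPases that switch between an inactive form bound to GDP and an active form bound to GTP. Exchange factors such as Dock3, which acts together with ELMO proteins, load Rac with GTP, and RhoG can recruit ELMO and its DOCK partner to the membrane. Active Rac binds the WAVE complex, which then drives the Arp2/3 complex to build branched actin, and active Rac and Cdc42 open the PAK kinases, which act on LIM kinase and cofilin. In skeletal muscle these proteins are known from myoblast fusion and, for Rac1 and Pak1, from insulin-stimulated glucose uptake. RNA abundance was measured here, and the share of each GTPase that is loaded with GTP was not.

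The RNAs of the 3 GTPases can be told apart by sequence. Over the whole coding sequence, from the GENCODE M21 gene models on GRCm38, Rac1 shared 65.8% of aligned bases with Rhog and 66.4% with Cdc42, and Rhog shared 60.5% with Cdc42. The longest identical run was 21 bases between Rac1 and Rhog. None of the 10 genes had a near-identical copy elsewhere, taken as a match of 100 bases or more with 95% identity or more that covers 50% of the shorter transcript. The nearest were processed pseudogenes with little signal, such as Gm7407, at 94.8% identity to Cdc42 and a mean of 0.234 normalized counts.

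Values are the authors' normalized counts, and their sums were 23520223 to 26507063 per sample in WT and 25148575 to 33393950 in Dock3 KO. Depth was estimated at approximately 21700000 to 32500000 reads per sample. For this each sum was divided by the most common value under 30, taken as 1 read, so these are not recorded read numbers. Dock3 RNA checks the labels: WT replicates 1, 3 and 4 held 169, 161 and 118 normalized counts, Dock3 KO replicates 1, 2 and 3 held 22.4, 1.78 and 1.54, so KO replicate 1 kept 15.0% of the WT mean. In KO replicates 1 and 2, Gm42418 and Lars2 took 17.9% and 20.3% of the sum, while their share elsewhere was 3.00% to 3.64%. Summed skeletal muscle fibre markers were 1325064 to 1427754 in WT and 1317847 to 1497055 in Dock3 KO, so the labelled tissue was present in all 6. None of the 10 fibre markers, 12 leukocyte, 7 endothelial, 5 Schwann cell, 5 adipocyte or 5 erythrocyte markers passed the test, and no marker was at 0 in every sample. Of 6 fibroblast markers, Col1a1 and Col3a1 passed, both higher in Dock3 KO, but the list was split, with 3 above 0, 3 below and a median log2 difference of -0.061. Summed fibroblast markers were 28485 to 30207 in WT and 31123 to 37389 in Dock3 KO, and summed leukocyte markers were 5568 to 6142 and 4227 to 5306. Of the 12 leukocyte markers 1 lay above 0. Neither sum overlapped between the genotypes, although the fibroblast markers did not move in one direction, and the part of these cells in the differences below was not tested. In whole muscle, fewer cells of a type and less RNA per cell cannot be told apart.

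None of the 10 genes passed the threshold, an adjusted p of 0.05 in limma over all genes tested, while 165 of 16031 genes did (1.03%). At an unadjusted p under 0.05 there was 1 of the 10, Pak1, against 10.5% of all genes. The groups did not overlap for 3 of the 10, Pak1 and Rac1 (higher in every Dock3 KO muscle) and Abi1 (lower in every one), against 16.2% of all genes (7.6% higher and 8.65% lower). Differences are given as Dock3 KO minus WT on the log2(normalized count + 1) scale. Their median over the 10 was 0.11, against -0.0073 over all genes tested, and their median size regardless of sign was 0.16, against 0.20. Of the 10, 7 lay above 0, and with the samples rescaled to the same total 5 of those (Rac1, Nckap1, Cyfip1, Brk1 and Pak2) were below it, since that rescaling lowers the median of all genes by 0.27.

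**Figure D1:**
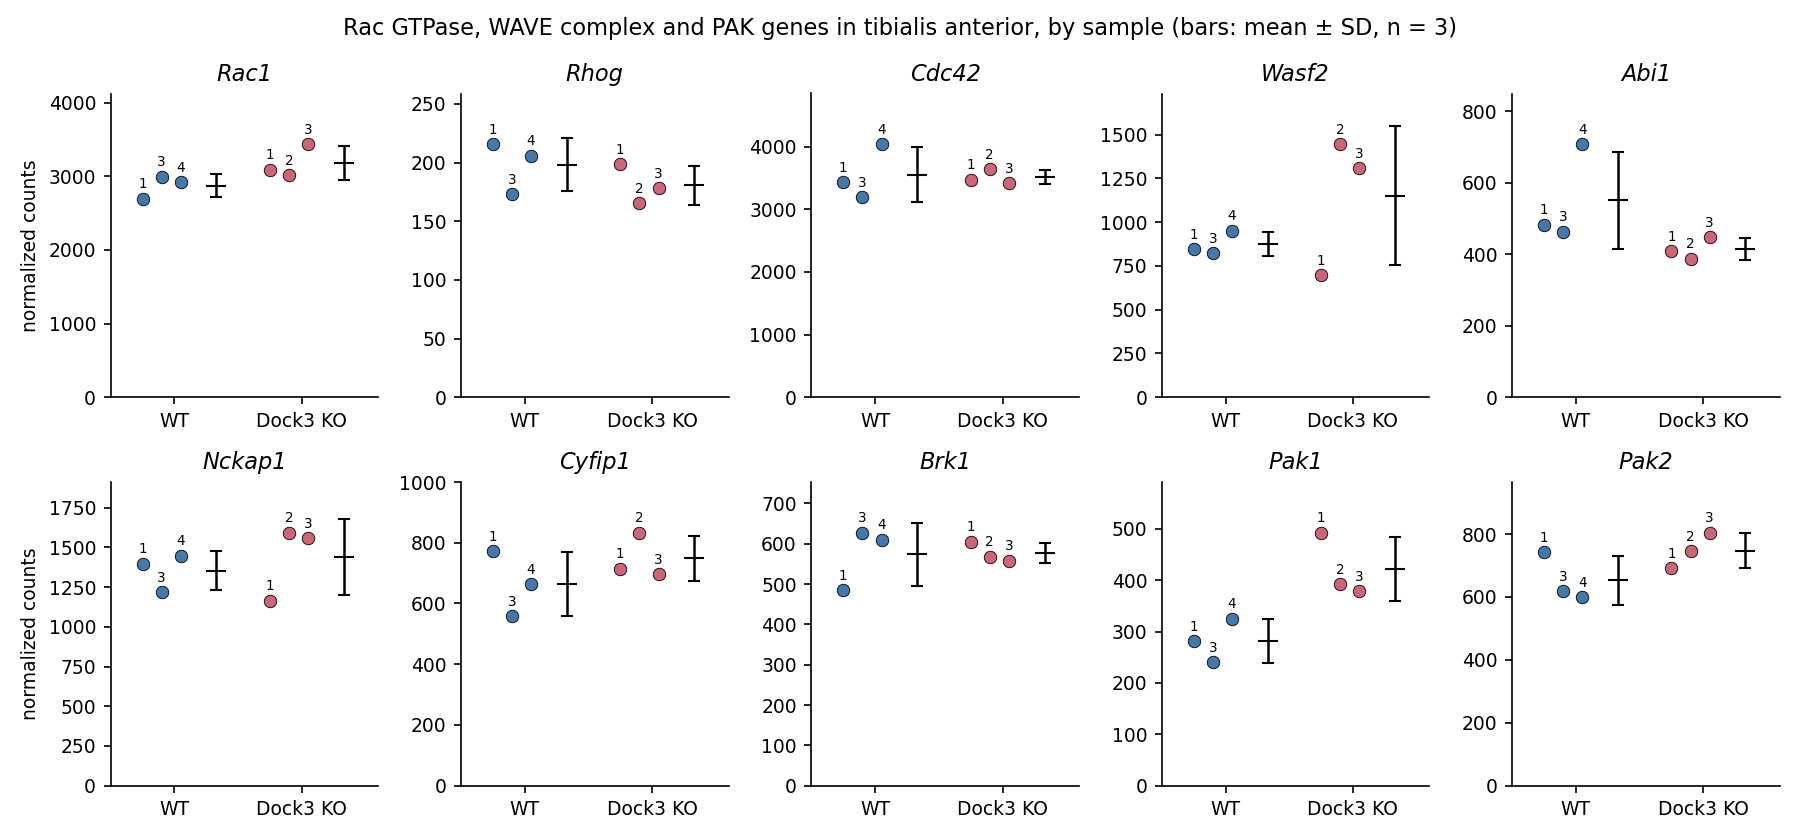
Normalized counts (y axes from 0) of the 10 genes in each muscle, with points numbered by replicate and bars giving the mean ± SD of 3 muscles per genotype. Pak1 runs from 240 to 325 in WT and from 379 to 493 in Dock3 KO with no overlap, whereas the genotypes overlap for Cdc42 and Brk1.

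Among the GTPases, neither Rac1 nor its relatives differed by an amount that passed the test. Rac1 (ENSMUSG00000001847, chr5:143503634-143528036, minus strand), the substrate of Dock3, was at 2694, 2995 and 2922 normalized counts in WT and 3090, 3011 and 3437 in Dock3 KO. All Dock3 KO muscles were above all WT muscles, although KO replicate 2 exceeded WT replicate 3 by less than the spread within either group. The means were 2870 ± 157 and 3180 ± 226 (SD, n = 3 each), a log2 difference of 0.15 (SE 0.12, limma adjusted p = 0.748) that turned to -0.13 with the samples rescaled to the same total. The 95% interval ran from -0.12 to 0.41, or from -7.83% to 33.0% relative to WT. Relative to the median of all genes, which that rescaling lowers, Rac1 was at 0.15 both before and after it. Exons of Daglb on the opposite strand cover 2309 of the 4496 exon bases of Rac1. Daglb averaged 427 normalized counts in WT and 387 in Dock3 KO, and whether the counting used strand is not given in the sources used here.

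Rhog (chr7:102239123-102256054, minus strand), the GTPase that recruits ELMO, was at 216, 173 and 206 normalized counts in WT and 199, 165 and 178 in Dock3 KO. The groups overlapped, and the log2 difference was -0.13 (SE 0.18, limma adjusted p = 0.877), with a 95% interval from -0.53 to 0.28. Cdc42 (chr4:137319696-137357720, minus strand), a GTPase that activates PAKs and the WASP proteins, was at 3429, 3193 and 4041 in WT and 3475, 3641 and 3420 in Dock3 KO. The 3 Dock3 KO values lay inside the WT range. Its log2 difference of -0.010 was the smallest in size of the 10, with a 95% interval from -0.29 to 0.27.

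Of the WAVE complex genes, Abi1 was lower and Wasf2 higher on average in Dock3 KO, and neither difference passed the test. Abi1 (ENSMUSG00000058835, chr2:22940073-23040241, minus strand) encodes the adaptor that joins WAVE to the rest of the complex. It was at 482, 463 and 708 normalized counts in WT and 409, 388 and 448 in Dock3 KO. The groups did not overlap, but WT replicate 4 was well above the other 2 WT muscles, which were close to KO replicate 3. The log2 difference was -0.38 (SE 0.18, limma adjusted p = 0.509), and without WT replicate 4 it was -0.19. Exons of Pdss1 on the opposite strand cover 194 of the 4032 exon bases of Abi1, and Pdss1 averaged 149 in WT and 145 in Dock3 KO.

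Wasf2 (chr4:133130505-133199756, plus strand) encodes WAVE2, the subunit that activates Arp2/3. It was at 846, 821 and 950 normalized counts in WT and 698, 1445 and 1308 in Dock3 KO. The Dock3 KO muscles split, with replicates 2 and 3 above every WT muscle and replicate 1 below every one, so their SD was 398 against 68.5 in WT. The log2 difference was 0.33 (SE 0.24, limma adjusted p = 0.716), and it hung on single muscles: it was 0.66 without KO replicate 1 (limma adjusted p = 0.0851), 0.13 without KO replicate 2 (limma adjusted p = 0.935) and 0.21 without KO replicate 3 (limma adjusted p = 0.875). KO replicate 1 is also the muscle that kept the most Dock3 RNA. It shared its high Gm42418 and Lars2 with replicate 2, which was high for Wasf2. With log2 Gm42418 as a covariate the Wasf2 difference was 0.59 (SE 0.37, limma adjusted p = 0.831). Only Dock3 KO muscles had high Gm42418, so this covariate and the genotype cannot be cleanly told apart. Whether the remaining Dock3 RNA bears on Wasf2 was not tested.

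Nckap1 and Cyfip1 encode the large subunits Nap1 and Sra1, of which Sra1 holds the Rac-binding sites. Nckap1 (chr2:80500512-80581380, minus strand) was at 1397, 1217 and 1448 normalized counts in WT and 1166, 1594 and 1557 in Dock3 KO, where replicate 1 was again the lowest muscle and replicates 2 and 3 the highest. Its log2 difference was 0.078 (limma adjusted p = 0.924). Cyfip1 (chr7:55841745-55932602, plus strand) was at 771, 558 and 663 in WT and 715, 833 and 696 in Dock3 KO, with overlap and a log2 difference of 0.18 (limma adjusted p = 0.770). Without WT replicate 3, the lowest muscle, it was 0.060, and without WT replicate 1 it was 0.29. Exons of Nipa2 on the opposite strand cover 1316 of the 11941 exon bases of Cyfip1, and Nipa2 averaged 596 in WT and 662 in Dock3 KO. Brk1 (chr6:113604772-113616951, plus strand), the smallest subunit, was at 485, 628 and 610 in WT and 605, 568 and 558 in Dock3 KO. Its groups overlapped and its log2 difference was 0.016, with a 95% interval from -0.32 to 0.35. The subunits thus did not share a direction: Abi1 lay below 0 and the other 4 above it. Of these, Nckap1, Cyfip1 and Brk1 turned below 0 with the samples rescaled to the same total, which lowers the median of all genes. Relative to that median they were 0.085, 0.19 and 0.023 before the rescaling and 0.082, 0.18 and 0.020 after it.

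Pak1 had the largest difference of the 10 genes and the smallest p. Pak1 (ENSMUSG00000030774, chr7:97788541-97912381, plus strand) encodes a kinase that is held inactive until Rac or Cdc42 binds it. It was at 281, 240 and 325 normalized counts in WT and 493, 392 and 379 in Dock3 KO. Every Dock3 KO muscle was above every WT muscle. The means were 282 ± 42.5 and 421 ± 62.3 (SD, n = 3 each), a log2 difference of 0.58 (SE 0.18) with a 95% interval from 0.18 to 0.98, or 13.3% to 96.7% higher in Dock3 KO. The unadjusted p was 0.00892 and the limma adjusted p 0.244, so the difference did not pass the threshold. Of all genes tested, 3.65% had a smaller p and 15.3% a larger difference in size. With log2 Gm42418 as a covariate the Pak1 difference was 0.42 (SE 0.27, limma adjusted p = 0.839). In that fit 0 of the 10 genes had an unadjusted limma p under 0.05. Only Dock3 KO muscles had high Gm42418, so this covariate and the genotype cannot be cleanly told apart. Pak1 stayed above 0 under all 20 alternative settings, from 0.30 to 0.73. Since its groups did not overlap, leaving out samples could not turn the sign. The filter, prior variance and protein-coding settings leave the difference at 0.58 by construction, so these settings are no separate support. Pak2 (chr16:32016290-32079342, minus strand), the related kinase expressed in most tissues, was at 742, 618 and 600 in WT and 692, 745 and 805 in Dock3 KO. WT replicate 1 lay within the Dock3 KO range, and the log2 difference was 0.20 (SE 0.14, limma adjusted p = 0.715).

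**Figure D2:**
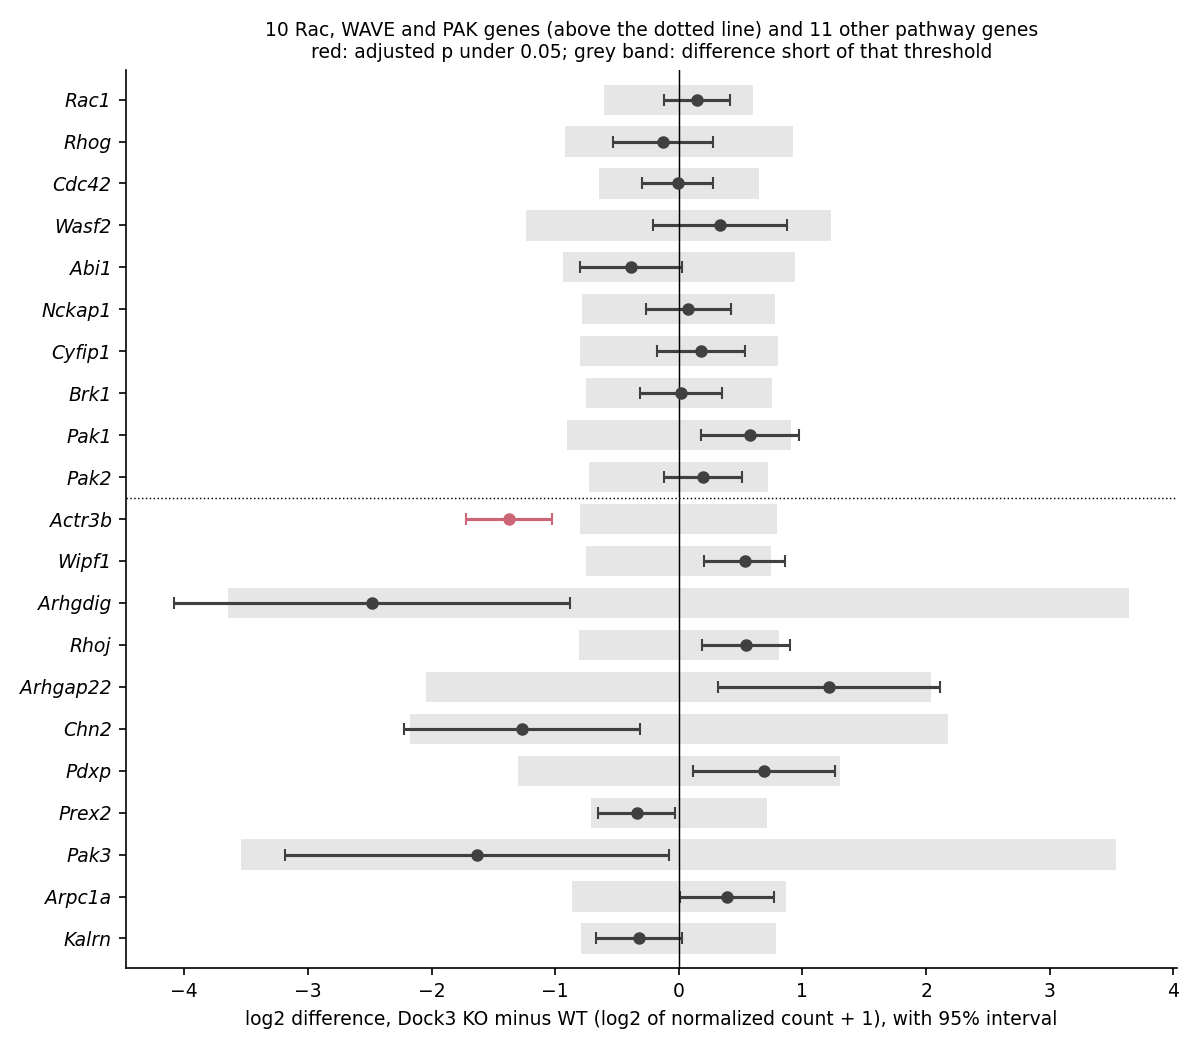
Log2 difference, Dock3 KO minus WT, with its 95% interval (x axis) for the 10 genes above the dotted line and 11 other genes of the pathway below it, where the grey band marks differences too small to pass the threshold at that gene's standard error. Every one of the 10 lies inside its band, Pak1 at 0.58 comes nearest to its edge of 0.91, and Actr3b at -1.37 lies outside.

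The precision sets what could have been called. At its own standard error, a log2 difference of 0.60 in Rac1, 0.65 in Cdc42, 0.91 in Pak1 or 1.23 in Wasf2 would have been needed to pass. Smaller differences were not detectable with 3 muscles per genotype, and the intervals leave room for them. The smallest difference in size among the 165 genes that passed was 0.67.

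Levels between genes were compared per kilobase of a single transcript per gene. This was the longest complete protein-coding transcript, with those annotated as principal taken first. Cdc42 was highest at 1676 normalized counts per kb (1515 to 1917 over the 6 muscles), followed by Rac1 at 727 (648 to 826), Brk1 at 526 (443 to 573) and Nckap1 at 313 (261 to 357). Each of these ranges stood clear of the next, but they hold only the spread between muscles and not the choice of transcript. Wasf2 at 179, Abi1 at 157, Rhog at 143, Pak2 at 122, Pak1 at 115 and Cyfip1 at 110 came after, and each of these ranges overlapped that of its neighbour, so their order is not fixed by these data. Per kilobase of the transcripts chosen, Cdc42 and Rac1 were thus the most abundant of the 10, and the WAVE complex subunits were not at equal RNA levels.

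Within its own family of paralogs, each of Rac1, Wasf2, Nckap1, Cyfip1 and Abi1 held most of the RNA in both genotypes. Rac1 made up 93.1% ± 1.66 of Rac RNA per kilobase in WT and 95.5% ± 2.83 in Dock3 KO, with Rac2, the leukocyte form, and Rac3 making up the rest. Wasf2 made up 88.5% ± 3.17 and 89.3% ± 6.61 of WAVE RNA, Nckap1 90.4% ± 1.86 and 91.1% ± 2.62 of its pair with Nckap1l, Cyfip1 87.6% ± 5.56 and 91.7% ± 1.95 of its pair with Cyfip2, and Abi1 71.6% ± 5.11 and 68.5% ± 3.45 of ABI RNA (SD, n = 3 each). For Abi1 most of the remainder was Abi2, at 345 ± 37.0 and 303 ± 57.8 normalized counts. Among Pak1, Pak2 and Pak3 the Pak1 share was 40.6%, 41.3% and 50.1% in the WT muscles and 56.8%, 49.5% and 46.7% in the Dock3 KO muscles. WT replicate 4 was within the Dock3 KO range, and the means of 44.0% and 51.0% differed with a two-sided exact permutation p of 0.3 (0.48 adjusted over the 8 shares compared). With 3 against 3 muscles the smallest p of that test is 0.1.

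**Figure D3:**
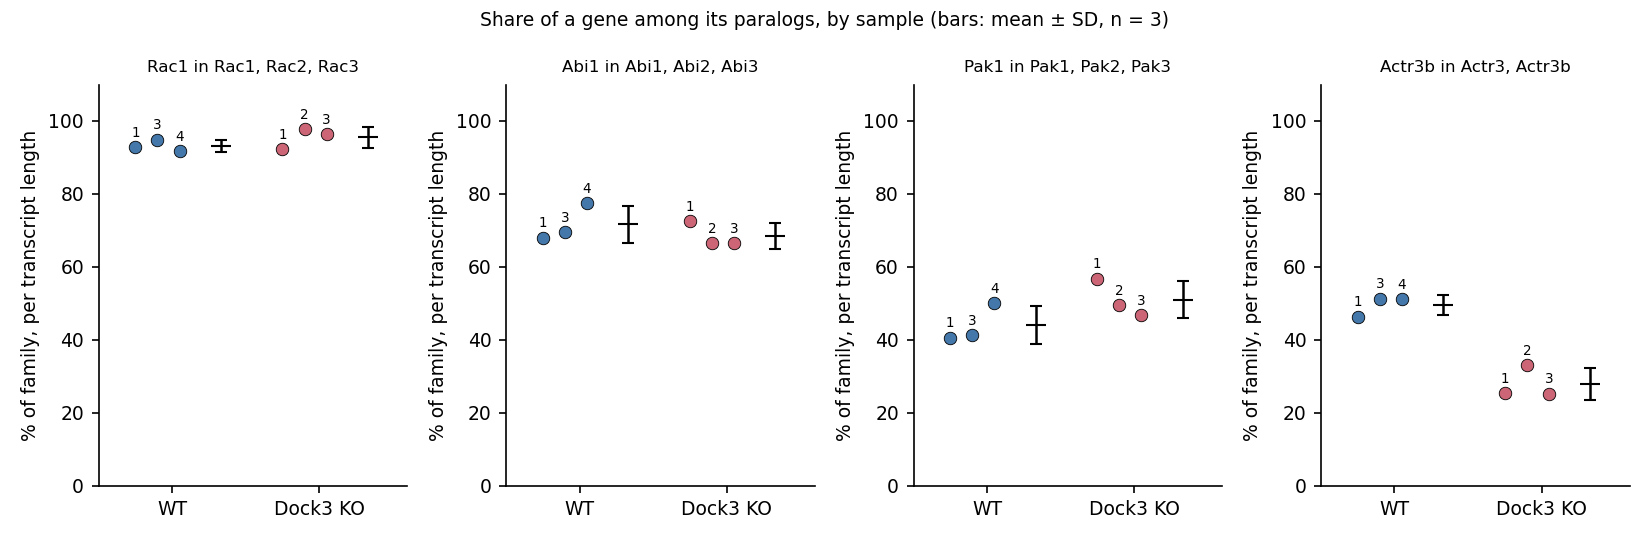
Share of a gene among its paralogs (y axis, % of normalized counts per transcript length) in each muscle, with points numbered by replicate and bars giving the mean ± SD of 3 muscles. Rac1 is above 90% in every muscle, Pak1 overlaps between the genotypes, and Actr3b lies between 46.3% and 51.3% in WT and between 25.3% and 33.1% in Dock3 KO.

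Paralogs of the 10 were mostly low, and none passed the test. Rac3 was at 28.7, 27.4 and 25.4 normalized counts in WT and 23.0, 10.03 and 14.4 in Dock3 KO, lower in every Dock3 KO muscle but with a limma adjusted p of 0.578. Rac2 was at 40.1 to 123 in WT and 22.05 to 123 in Dock3 KO. Nckap1l was at 120 to 187 and 129 to 167. Both overlapped between the genotypes, with log2 differences of -0.43 (SE 0.59) for Rac2 and -0.064 (SE 0.22) for Nckap1l. Both are known from leukocytes, whose summed markers were lower in Dock3 KO as given above, and a link was not tested. Pak3, a PAK best known from neurons, was at 41.3, 28.8 and 10.1 in WT and 15.8, 3.89 and 4.69 in Dock3 KO, with overlap and a log2 difference of -1.63 (SE 0.70, limma adjusted p = 0.445). Cyfip2 averaged 103 ± 67.3 and 70.0 ± 15.4, Pak4 64.8 ± 10.7 and 68.5 ± 8.26, Abi3 38.1 ± 14.8 and 40.6 ± 6.41, and Wasf1 20.5 ± 15.9 and 21.8 ± 12.1 (SD, n = 3 each). Wasf3 ran from 64.0 to 66.4 in WT and from 60.1 to 75.9 in Dock3 KO. Pak6 and Pak5 (named Pak7 in GENCODE M21) were too low to test. Pak6 did not exceed 19.7 in any muscle, and Pak7 was listed at 0 in 4 of 6.

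The wider pathway was followed in 7 lists holding 88 other genes, of which 85 could be tested. Of these, 2 passed the limma threshold, Actr3b and Dock3 itself, both lower in Dock3 KO, and none passed in the higher direction (background 0.586% lower and 0.443% higher). At an unadjusted p under 0.05, 5 were higher and 6 lower, 40 of the 85 lay above 0 and 45 below, and the median difference was -0.021. The groups did not overlap for 7 of the 85 in the higher direction and 7 in the lower, against 7.6% and 8.65% of all genes. List by list, the numbers tested, and the medians, were 6 and -0.082 for other Rac and Cdc42 GTPases, 12 and -0.042 for other WAVE and WASP genes, and 10 and -0.0026 for the Arp2/3 complex. They were 10 and -0.017 for other PAKs and their partners, 8 and 0.043 for LIM kinases and cofilins, 21 and -0.21 for exchange factors and ELMOs, and 18 and 0.016 for GAPs and GDIs. These lists were chosen with earlier results of these data known, and Dock3 is a member of the exchange factor list by design.

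**Figure D4:**
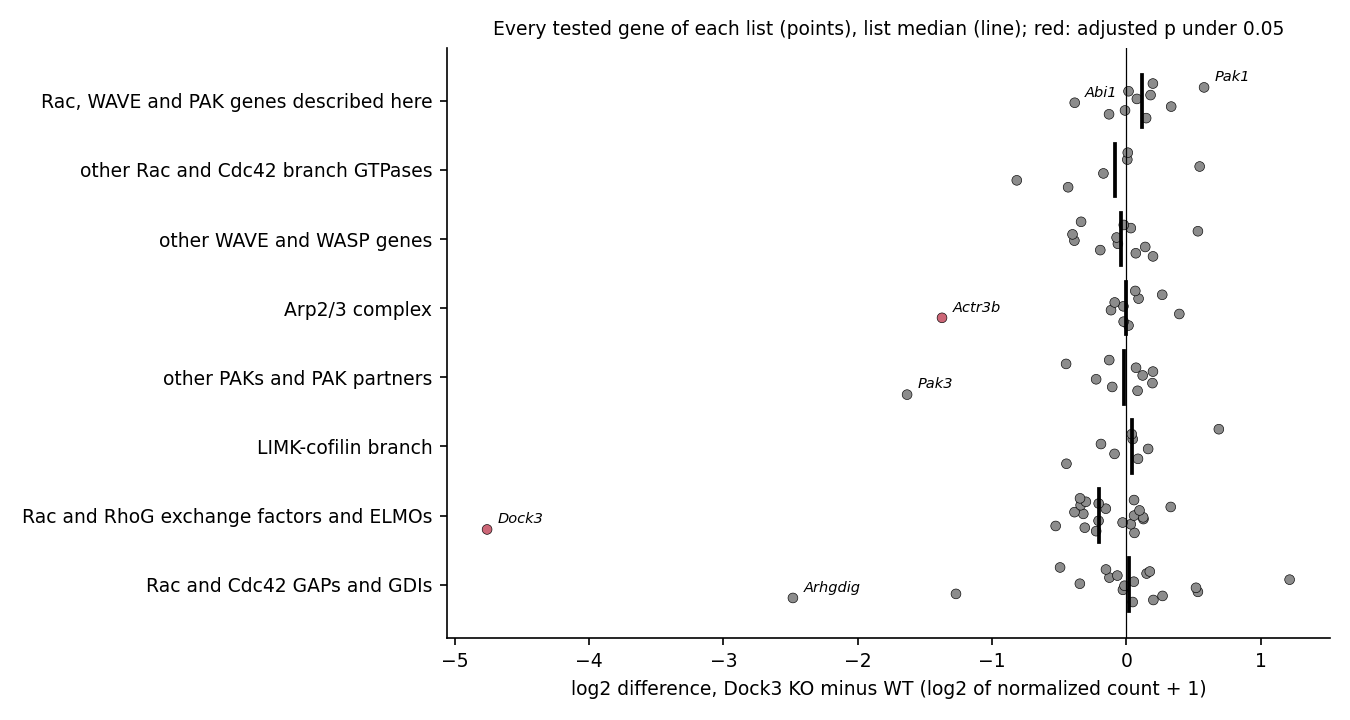
Log2 difference, Dock3 KO minus WT (x axis), of every tested gene in the group of 10 and in the 7 other lists (rows), with a line at each median and red for genes past the threshold. The medians lie between -0.21 and 0.11, and Actr3b and Dock3 are the genes in red.

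Apart from Dock3, which is listed by design, Actr3b was the only one of the 85 tested pathway genes to pass the threshold. Of all genes tested 1.03% passed, so 1 such gene among these lists is near that background. Actr3b encodes Arp3b, a second form of the Arp3 subunit of the Arp2/3 complex, the machine that WAVE switches on. Actr3b (chr5:25759997-25850688, plus strand) was at 547, 567 and 504 normalized counts in WT and 206, 234 and 185 in Dock3 KO. The highest Dock3 KO muscle was well below the lowest WT muscle. The mean fell from 539 ± 32.5 to 208 ± 24.4 normalized counts (SD, n = 3 per genotype), which is -1.37 on the log2 scale (SE 0.16, 95% interval -1.72 to -1.02, limma adjusted p = 0.00187). Actr3, which encodes the common Arp3, was at 951, 807 and 722 in WT and 912, 709 and 821 in Dock3 KO, with overlap and a log2 difference of -0.021 (95% interval -0.37 to 0.33). Per kilobase, the Actr3b share of the pair was 46.3%, 51.3% and 51.1% in WT and 25.3%, 33.1% and 25.3% in Dock3 KO. The two-sided exact permutation p was 0.1, the smallest possible, and 0.48 adjusted over the 8 shares. Actr3 was chosen after its values were seen and Actr3b already did not overlap, so this test is no separate support.

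The starts of the pair are shown because the difference rests on telling their RNAs apart. The first 60 coding bases are given on the coding strand, 5′ to 3′, with capitals for bases that both genes share, from GRCm38 with GENCODE M21 models. Those of Actr3 cover parts of 2 exons within chr1:125418289-125435328 on the minus strand, and those of Actr3b parts of 2 exons within chr5:25760085-25798461 on the plus strand.
Actr3: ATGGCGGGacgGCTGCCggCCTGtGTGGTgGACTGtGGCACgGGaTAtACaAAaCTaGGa
Actr3b: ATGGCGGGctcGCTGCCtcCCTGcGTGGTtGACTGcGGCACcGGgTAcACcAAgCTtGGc
Of these bases 45 were shared, and 12 of the 15 others were the third base of a codon. Over their 1254 coding bases the pair shared 76.3%, with a longest identical run of 20 bases, and no near-identical copy of Actr3b was found.

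The other subunits of Arp2/3 did not pass. The nearest was Arpc1a, a scaffold subunit, at 331, 329 and 342 normalized counts in WT and 488, 493 and 352 in Dock3 KO. All Dock3 KO muscles were higher, but KO replicate 3 stood only just above WT, and the log2 difference was 0.39 (SE 0.17, limma adjusted p = 0.456). Its high values were in the same 2 muscles that had high Gm42418 and Lars2. With log2 Gm42418 as a covariate the difference was 0.038 (SE 0.22, limma adjusted p = 0.988), and with KO replicate 3 alone against WT it was 0.075. Only Dock3 KO muscles had high Gm42418 and Lars2, so this covariate and the genotype cannot be cleanly told apart. The cause was not tested.

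Further genes with a small unadjusted p missed the limma threshold. Wipf1, which encodes the partner that holds and stabilises WASP proteins, was at 365, 318 and 348 normalized counts in WT and 515, 447 and 531 in Dock3 KO, higher in every Dock3 KO muscle (log2 difference 0.53, SE 0.15, limma adjusted p = 0.184). Rhoj, a GTPase close to Cdc42 and known from endothelium, was at 410, 476 and 516 in WT and 792, 606 and 652 in Dock3 KO (log2 difference 0.55, SE 0.16, limma adjusted p = 0.209). Both had groups that did not overlap. Summed endothelial markers overlapped, at 4093 to 5621 in WT and 3977 to 5379 in Dock3 KO. The part of endothelial cells in the Rhoj difference was not tested.

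Among regulators that switch the GTPases off or hold them back, Arhgdig, which encodes a GDP dissociation inhibitor, was at 23.9, 16.5 and 23.2 normalized counts in WT and 2.89, 7.72 and 0.778 in Dock3 KO. Its log2 difference of -2.48 carried an SE of 0.72 at these low values (limma adjusted p = 0.204). The Rac GAP gene Arhgap22 was at 17.2, 24.6 and 26.4 in WT and 51.5, 34.3 and 85.2 in Dock3 KO (log2 difference 1.21, limma adjusted p = 0.287). Chn2, which encodes the Rac GAP beta-chimaerin, was at 49.8, 28.6 and 80.3 in WT and 24.7, 18.1 and 16.7 in Dock3 KO (log2 difference -1.27, limma adjusted p = 0.296). In each of these 3 genes the groups did not overlap, and the low levels made the differences imprecise.

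Of the remaining genes named by rank, Pdxp encodes a phosphatase that activates cofilin, and Prex2 and Kalrn encode Rac exchange factors. Pdxp averaged 57.4 ± 12.3 normalized counts in WT and 92.2 ± 10.5 in Dock3 KO (log2 difference 0.69, limma adjusted p = 0.353). Prex2 averaged 869 ± 74.3 and 687 ± 69.6 (log2 difference -0.34, limma adjusted p = 0.420), and Kalrn 453 ± 39.9 and 363 ± 42.9 (log2 difference -0.32, limma adjusted p = 0.513). The groups of these 3 genes did not overlap either. Cfl2, the cofilin of muscle, was at 6555 ± 398 and 7325 ± 142 and did not pass (log2 difference 0.16, limma adjusted p = 0.711).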

How the data were processed

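Per the labels' protocols, ribosomal RNA was removed and the libraries were stranded and sequenced from both ends. The authors deposited normalized counts per gene, recorded here as a signal. The submitters' processing notes name FastQC, Trim Galore 0.4.5, Salmon 0.12.0, DESeq2 1.22.1, R 3.5.3 and the builds mm10 and GRCm38, without saying what each did. At most 22.6% of low values were whole multiples of 1 read (tolerance 0.01 reads), so count models were not used.

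Genes with a mean of at least 10 over the 6 samples were compared on log2(value + 1), a scale that understates changes of low genes, with limma 3.58.1 in R 4.3.3 (lmFit, eBayes with trend, no covariates) and Benjamini-Hochberg adjustment over all 16031. The test was checked on simulated data. Shares were tested by exact permutation with scipy 1.17.1. Copies were searched with blastn 2.17.0. Symbols, positions and sequences are from GENCODE M21 on GRCm38, where all 54393 identifiers were found.

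The 10 genes and all lists were chosen with earlier results of these data known. Also named are Dock3, the 12 other pathway genes of smallest p (Dock3 is 1 of these), and the paralogs of the Rac, WAVE complex and PAK genes. Actr3, Cfl2 and Rhoq were chosen after their values were seen. Alternatives covered the pseudocount, filter, scaling, prior variance, a Gm42418 covariate, a replicate block, protein-coding genes and left-out samples.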

Additional observations from a re-analysis of the deposited data

How the results depend on the processing

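The number of the 10 genes past the limma threshold was 0 under all 20 alternatives. Pak1 and Wasf2 stayed above 0, and Abi1 and Rhog below 0, in all of them. For Pak1 and Abi1, whose groups did not overlap, leaving out samples could not have turned the sign. The filter, prior variance and protein-coding settings leave every difference unchanged. The signs that turned belong to genes with differences of 0.20 or less in size, but Rhog, at -0.13, was also small and kept its sign. Rescaling to the same total lowers the median of all genes by 0.27, so it turned small positive differences and not negative ones. Rescaled to the same total, Rac1 was -0.13, Nckap1 -0.20, Cyfip1 -0.096, Brk1 -0.26 and Pak2 -0.078. Relative to the median of all genes under that rescaling, the same genes were at 0.15, 0.082, 0.18, 0.020 and 0.20. Rescaled without Gm42418 and Lars2, which lowers the median of all genes by 0.10, Nckap1 was -0.025 and Brk1 -0.087. Brk1 was -0.015 with log2 Gm42418 as a covariate and -0.032 with KO replicate 3 alone against WT, an alternative chosen after seeing the data that assumes the lone sample varies like the WT samples. Leaving out 1 sample at a time gave -0.084 to 0.086 for Cdc42, -0.0028 to 0.22 for Nckap1 and -0.10 to 0.084 for Brk1. The same ranges were 0.089 to 0.18 for Rac1, -0.22 to -0.065 for Rhog, 0.13 to 0.66 for Wasf2, -0.50 to -0.19 for Abi1, 0.060 to 0.29 for Cyfip1, 0.46 to 0.69 for Pak1 and 0.14 to 0.29 for Pak2.

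The pathway genes past the threshold went from 2 to 1 with a prior variance without trend, with the Gm42418 covariate, with KO replicate 3 alone, and in the range of 1 to 2 when 1 sample was left out. The gene lost was Dock3, except with KO replicate 3 alone, where it was Actr3b (limma adjusted p = 0.0556). Dock3 was lost without WT replicate 1, 3 or 4 and without KO replicate 2 or 3. Of all genes, 165 passed (71 higher), against 104 without trend, 57 with the covariate, 104 among protein-coding genes only, 49 with KO replicate 3 alone and 98 to 159 when 1 sample was left out, with 98 without WT replicate 4 and 100 without KO replicate 2. Rescaled to the same total 177 passed, 41 of them higher, and 162 and 52 without the 2 genes. The causes were not tested.

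The replicate numbers 1 and 3 occur in both genotypes. Their deviations correlated by 0.065 and 0.0066, and the labels do not say that they pair samples. With the replicate block, Cdc42 was 0.059, Pak1 0.73 and Abi1 -0.14, and 0 of the 10 genes, 2 pathway genes and 127 of all genes passed. Summing genes with near-identical copies was not run, since none were found. Depth is known only approximately, so values carry no counting interval.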

Other observations

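Expression profiles over the 6 muscles were compared with that of Rac1 for 13436 protein-coding genes, by the mean absolute difference of log2 values after each gene was centred on its own mean. The closest were Eif4h, which encodes a helper of translation initiation (distance 0.018), Mapkapk2, a stress kinase downstream of p38 (0.022), and Gdpd1, a phosphodiesterase (0.023), against a median distance of 0.22 over all genes compared. Eif4h was at 1447, 1611 and 1606 normalized counts in WT and 1691, 1613 and 1795 in Dock3 KO, with WT replicate 1 lowest and KO replicate 3 highest, as for Rac1. These genes were picked for the smallest distances, so lying below the median was fixed in advance. The distance also depends on how much a gene varies, and Rac1 varied little. The 6 muscles share their libraries across all genes, so this likeness is a description.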
